A study of Mus musculus with 4 samples.

Results

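The 10 genes described here encode C-type lectins and scavenger receptors of macrophages: Clec4a2, Clec7a, Clec10a, Mrc1, Cd163, Msr1, Cd36, Stab1, Lyve1 and Colec12. They form a functional group chosen by name, all 10 were among the 33696 gene features of the matrices, and every unique molecular identifier (UMI, 1 counted transcript) of each was taken from all 4 matrices. Nuclei came from mouse brain 21 days after a photothrombotic (PT) lesion, a focal ischaemia of cortex in which a dye in the vessels is activated by light. Mice of the control group carried the wild-type label, and *Cxcl12*-cKO mice carried a floxed *Cxcl12* together with *Col1a2*-creER, a Cre recombinase that acts in collagen 1-producing cells and that tamoxifen activates. Each group was 1 library in which tissue of 1 male and 1 female mouse was pooled, with lesion and parenchyma nuclei marked by tags and mixed at 75% and 25%. The labels give neither an age nor a strain for these groups, and the study's methods give a C57BL/6 background and, for age, a range for the study's mice in general. The methods describe the controls of conditional knockouts as Cre-negative or heterozygous floxed littermates given tamoxifen where the strain called for it, and name uninduced controls only for some uninjured mice and another stroke model. They do not name the kind of control in these libraries. With 1 library per genotype no difference between genotypes could be tested, so each value is given for both libraries with a 95% interval that covers counting error only. Levels are in CPM, the UMIs of a gene divided by all UMIs of the same nuclei and scaled to 1000000.

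C-type lectins bind carbohydrates on microbes, matrix and dying cells, and scavenger receptors take up modified lipoproteins, haemoglobin complexes and debris. In brain, several of these receptors mark macrophages of the meninges and perivascular spaces, while others appear on microglia and on macrophages that enter damaged tissue. Clec7a signals through the kinase Syk, whereas Clec4a2 carries an inhibitory motif that recruits phosphatases.

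Promoter windows are shown for the members whose start site matched a reference transcript and whose levels carry the contrasts that follow, so that their upstream letters can be set side by side. RefSeq promoters on GRCm38.p6 were found for 6 of the 10 members, and the 250 bases before the start are printed for Mrc1 (chr2:14229164-14229413, plus strand), Stab1 (chr14:31168642-31168891, minus strand), Clec7a (chr6:129472780-129473029, minus strand) and Clec4a2 (chr6:123122440-123122689, plus strand). All lie upstream of the first exon. Capitals mark the hexamer GAGGAA or its reverse complement TTCCTC, a core bound by the macrophage factor PU.1.
Mrc1: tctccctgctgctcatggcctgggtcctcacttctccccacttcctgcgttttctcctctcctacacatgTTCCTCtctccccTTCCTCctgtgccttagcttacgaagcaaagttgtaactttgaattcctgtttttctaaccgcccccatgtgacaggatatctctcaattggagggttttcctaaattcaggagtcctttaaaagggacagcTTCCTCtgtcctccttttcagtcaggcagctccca
Stab1: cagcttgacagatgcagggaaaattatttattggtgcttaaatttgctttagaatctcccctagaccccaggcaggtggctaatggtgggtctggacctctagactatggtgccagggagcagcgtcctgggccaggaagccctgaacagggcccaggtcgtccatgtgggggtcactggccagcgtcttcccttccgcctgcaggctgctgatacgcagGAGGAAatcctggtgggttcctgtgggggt
Clec7a: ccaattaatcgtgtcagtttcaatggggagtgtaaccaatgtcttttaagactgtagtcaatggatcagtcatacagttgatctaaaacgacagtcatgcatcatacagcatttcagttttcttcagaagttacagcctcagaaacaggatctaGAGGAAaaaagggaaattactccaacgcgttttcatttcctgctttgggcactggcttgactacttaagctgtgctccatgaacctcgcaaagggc
Clec4a2: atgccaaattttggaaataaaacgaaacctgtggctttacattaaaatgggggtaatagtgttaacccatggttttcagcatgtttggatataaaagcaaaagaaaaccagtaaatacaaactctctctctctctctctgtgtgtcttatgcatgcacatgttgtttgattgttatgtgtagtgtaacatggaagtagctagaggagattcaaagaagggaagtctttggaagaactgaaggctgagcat
The hexamer occurred 3 times upstream of Mrc1, at 180, 167 and 35 bases before the start. It occurred once upstream of Clec7a, at 96 bases, and once upstream of Stab1, at 30 bases. None was found in the windows of Clec4a2, Cd163 or Cd36, and 23.3% of 32851 promoter windows of the same length held at least 1 on either strand. Neither TGANTCA (in 6.75% of windows) nor GAAA and GAAA spaced by 2 bases (in 2.98%) was found upstream of any of the 6 members, which says only that these letters are not in these windows.

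The matrices held 23489 barcodes, of which 21743 nuclei were kept. Lesional nuclei were shallow, with a median of 2962 UMIs in the control-labelled library and 2975 in the cKO-labelled library, against 15915 and 16648 in parenchyma. The libraries shared 47 barcodes, 22 of them between the lesion matrices, and 9.75% to 14.3% of nuclei held UMIs of genes specific to both sexes. *Cxcl12* itself stood at 106 CPM in lesional fibroblast-like nuclei labelled control and at 215 in those labelled cKO, which goes against the label; the sources used here do not give the deleted part, so whether the counted 3′ end lies within it is not known. Directions between genotypes are therefore given for the libraries as labelled. Lesional myeloid-like nuclei numbered 1807 in the control-labelled library (median 2178 UMIs) and 2340 in the cKO-labelled library (median 2397 UMIs), and none of the 10 genes was used to cluster or to name nuclei.

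Of the 10 members, 8 had most of their lesional UMIs in myeloid-like nuclei, which held 18.8% of all lesional UMIs. The shares were 91.9% for Clec4a2 (205 of 223 UMIs), 88.1% for Clec7a (1868 of 2121), 89.3% for Clec10a (201 of 225) and 90.1% for Mrc1 (2809 of 3118). They were 82.4% for Cd163 (84 of 102), 89.7% for Msr1 (2479 of 2764), 92.5% for Cd36 (2529 of 2735) and 87.9% for Stab1 (4300 of 4890). Lyve1 and Colec12 departed from the other members, with 81.7% and 69.5% of their lesional UMIs in fibroblast-like nuclei, which held 44.8% of all lesional UMIs. Myeloid-like nuclei held 21.6% of the lesional Colec12 UMIs, beside their 18.8% of all lesional UMIs.

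The lectins were low outside the myeloid class. Clec7a, the β-glucan receptor dectin-1, stood at 167 (156 to 179) and 147 (138 to 156) CPM in myeloid-like nuclei of the control- and cKO-labelled libraries, and at 4.14 and 4.93 in fibroblast-like nuclei. Mrc1, the macrophage mannose receptor, stood at 269 (255 to 284) and 208 (198 to 219) in myeloid-like nuclei and at 62.6 (44.1 to 86.3) and 75.9 (50.0 to 110.4) in endothelial-like nuclei. The endothelial-like level rested on 37 and 27 UMIs and lay above that of fibroblast-like nuclei, at 3.86 and 4.45. Clec4a2, an inhibitory receptor, reached 26.3 (21.9 to 31.3) and 10.7 (8.44 to 13.4). Whether its reads are shared with related neighbours such as Clec4a1 and Clec4a3 was not tested. Clec10a, a galactose-binding lectin, reached 24.9 (20.6 to 29.7) and 11.1 (8.81 to 13.8), while fibroblast-like nuclei held 6 and 5 of its UMIs.

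Among the scavenger receptors, Stab1, which clears matrix proteins and modified lipoproteins, was also found in endothelial-like nuclei. It stood at 378 (361 to 396) and 341 (328 to 355) CPM in myeloid-like, 113 (87.8 to 144) and 171 (131 to 220.2) in endothelial-like and 5.89 and 9.11 in fibroblast-like nuclei. The endothelial-like intervals did not meet those of either other class in the same library. Endothelial-like nuclei (199 and 108) also carried the 8 myeloid markers at 414 and 669 CPM, against 54.3 and 59.6 in fibroblast-like and 3699 and 3060 in myeloid-like nuclei, with 0 of the 8 absent in either library. The part of myeloid RNA in the endothelial-like Stab1, Mrc1 and Cd36 was not tested. Cd36, which takes up long-chain fatty acids and oxidised lipoproteins, stood at 187 (175 to 199.9) and 225 (214 to 236) in myeloid-like and 27.1 (15.5 to 44.0) and 42.1 (23.6 to 69.5) in endothelial-like nuclei. Msr1, the class A receptor for modified lipoproteins, stood at 184 (172 to 197) and 219.8 (209 to 231) in myeloid-like nuclei, and its endothelial-like values rested on 7 UMIs in each library. Cd163, the receptor for haemoglobin bound to haptoglobin, had 44 and 40 myeloid-like UMIs, or 9.04 (6.57 to 12.1) and 5.56 (3.97 to 7.57), and 0 UMIs in endothelial-like nuclei of either library.

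Colec12, a membrane collectin that binds oxidised lipoproteins and microbial sugars, was spread over many classes. Its levels were 515 (503 to 527) and 569 (557 to 582) CPM in fibroblast-like, 382 (365 to 399.8) and 418 (403 to 433) in myeloid-like and 205 (169.8 to 245) and 278 (226 to 339) in endothelial-like nuclei. The order fibroblast-like, myeloid-like, endothelial-like held in both libraries with no overlap of neighbouring intervals. The 7 fibroblast markers stood at 4402 and 3885 CPM in fibroblast-like, 1168 and 821 in myeloid-like and 2196 and 1337 in endothelial-like nuclei, and the part of fibroblast RNA in the Colec12 of the latter classes was not tested. Excitatory neuron-like nuclei were lowest among the named classes, at 12.4 and 17.2. Within the fibroblast-like class, the cluster led by transporters and Lama1 carried 1793 and 1579 CPM, against 452 and 557 in the Ranbp3l-containing cluster and 368 and 398 in the Eln-led cluster. An unnamed cluster led by bone matrix genes also carried Colec12, at 667 and 754.

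Lyve1, the hyaluronan receptor that marks lymphatic endothelium and some border macrophages, had only 79 UMIs in the 4 matrices. Fibroblast-like nuclei of the lesion held 29 UMIs in each library, of which 25 and 22 lay in the Ranbp3l-containing cluster. Myeloid-like nuclei held 2 and 5 UMIs, and endothelial-like nuclei 3 and 0. A UMI of Lyve1 was found in 0.67% and 0.61% of fibroblast-like nuclei, against 0.40% and 0.00% of excitatory neuron-like nuclei, which were deeper, so these shares do not compare levels. By UMIs over both libraries, fibroblast-like nuclei held 81.7% of the lesional Lyve1 and 44.8% of all lesional UMIs. Excitatory neuron-like nuclei held 2.82% of the lesional Lyve1, from 2 UMIs, and 16.7% of all lesional UMIs.

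Shares of nuclei showed the same contrast after depth was set equal. Stab1 was found in 43.6% and 45.1% of lesional myeloid-like nuclei in the control- and cKO-labelled libraries, against 3.97% and 2.13% of excitatory neuron-like nuclei, which should lack it and had medians of 14005 and 12781 UMIs. Thinned to 1000 UMIs per nucleus, which left out 100 and 122 myeloid-like and 0 and 1 neuron-like nuclei, the Stab1 shares became 28.8% and 25.9% against 0.40% and 0.00%. Thinned Mrc1 shares were 14.8% and 10.9%, from 22.0% and 17.3% before thinning, against 0.00% and 0.43% in neuron-like nuclei. Thinned Cd163 shares were 0.82% and 0.45% against 0.00% in both neuron-like groups. Cd163 before thinning was found in 1.33% and 0.81% of myeloid-like nuclei, close to the 0.79% of neuron-like nuclei in the control-labelled library.

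**Figure D1:**
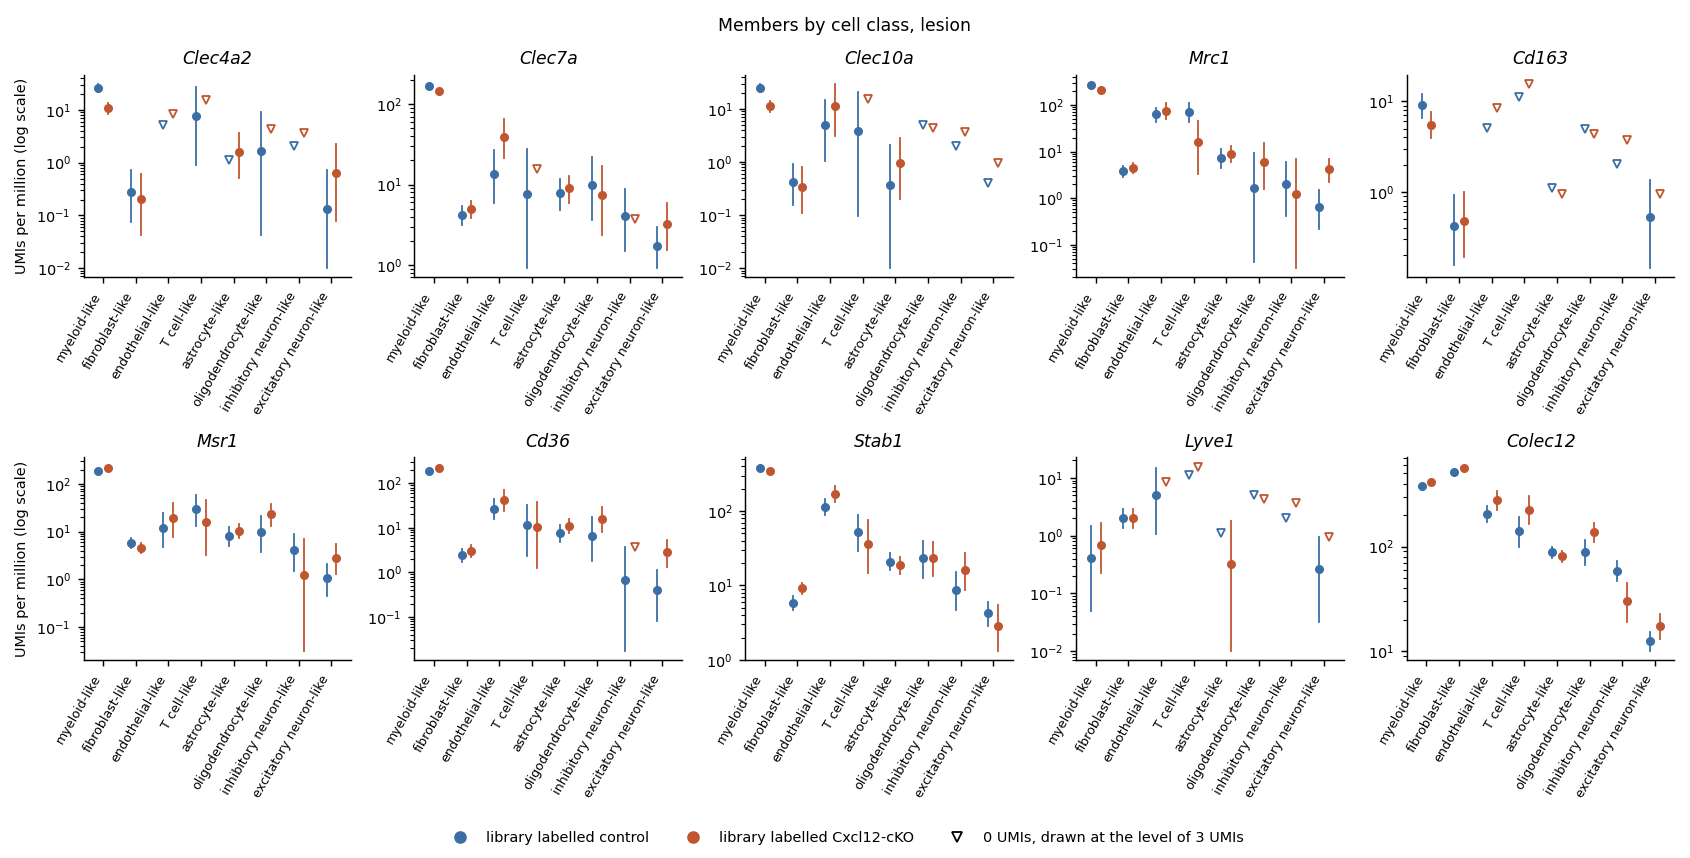
CPM (log scale) of each member in lesional nuclei by cell class, with 1 point per library and lines for 95% counting intervals; open triangles stand for 0 UMIs and are drawn at the level of 3 UMIs. Most members are highest in myeloid-like nuclei, whereas Colec12 is highest in fibroblast-like nuclei (515 and 569 CPM) and Lyve1 is near 2 CPM there.

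Within the myeloid class the members separated by state. Clustering at resolution 0.25 gave a homeostatic microglia-like subcluster (768 and 934 nuclei) and an unnamed F13a1-led subcluster (630 and 884 nuclei) as the largest states. The microglia-like name rests on marker genes and is not a claim of a resting state. Gpnmb, a gene of damage-associated myeloid cells, stood there at 1539 and 1985 CPM, and P2ry12, a homeostatic marker, at 346 and 283. In all lesional myeloid-like nuclei Gpnmb stood at 1430 and 1985. The F13a1-led subcluster held 78.4% of the lesional UMIs of Cd163, 70.4% of Mrc1, 66.7% of Clec10a, 65.5% of Cd36, 60.5% of Clec4a2, 45.6% of Stab1, 44.0% of Msr1 and 30.8% of Clec7a. The microglia-like subcluster held 37.4% of Clec7a, 27.4% of Msr1, 26.8% of Stab1, 12.1% of Cd36 and 5.3% of Mrc1. Of all lesional UMIs the F13a1-led subcluster held 6.28% and the microglia-like subcluster 6.37%, so the microglia-like share of Mrc1 lay below that of all UMIs. Cd163, Clec10a and Lyve1 had 0 UMIs in the 1702 microglia-like nuclei of both libraries, which allows a share of nuclei with a UMI of up to 0.479% in the control-labelled library and 0.394% in the cKO-labelled library (exact binomial bound).

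At resolution 0.5 a border-associated macrophage-like (BAM-like) subcluster of 123 and 88 nuclei separated, named from F13a1, Pf4, Cbr2, Folr2, Ms4a7, Dab2 and Ccl8. Mrc1 stood there at 2396 (2214 to 2588) and 3583 (3316 to 3866) CPM, and 94.3% and 100% of its nuclei had an Mrc1 UMI. Stab1 stood at 1515 (1371 to 1669.8) and 1684 (1503 to 1881). The next Mrc1 level was that of an Arhgap15-led subcluster, at 381 and 259. For Stab1 the Arhgap15-led nuclei, at 569 and 504, and dividing-like nuclei, at 423 and 522, came next, in opposite order in the 2 libraries.

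Clec10a and Cd163 also peaked in the BAM-like nuclei. Clec10a reached 269 (210.2 to 338) and 279.8 (209 to 367) there against 16.8 and 10.8 in the Arhgap15-led nuclei, and it also appeared in Xcr1-led dendritic-like nuclei at 80.2 and 95.7, from 5 and 9 UMIs. Cd163 reached 146 (103 to 199) and 199 (140.2 to 274), and 6 of the 10 subclusters held 0 Cd163 UMIs in both libraries. Clec7a had the opposite order, with 37.3 (17.9 to 68.6) and 16.1 (3.33 to 47.2) in BAM-like nuclei and 361 (291 to 443) and 280.0 (227 to 341) in an S100a4-led subcluster. The Mamdc2-led subcluster followed at 324 and 252, and its Clec7a intervals overlapped those of the S100a4-led nuclei in both libraries.

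Cd36 was high in the dividing-like subcluster, at 1327 (1181 to 1487) and 914 (844 to 988) CPM, and in the Mamdc2-led subcluster, at 869 (768 to 979) and 650.5 (591 to 715). Dividing-like nuclei numbered 63 and 164 at this resolution but 23 and 47 at resolution 0.25. There they held 172 Cd36 UMIs over both libraries, 6.29% of its lesional UMIs, beside 0.45% of all lesional UMIs. Whether the nuclei added at resolution 0.5 divide was not tested. Cd36 was low in homeostatic microglia-like nuclei, at 16.5 and 8.86, and stood at 101 and 75.3 in BAM-like nuclei. In the Mamdc2-led subcluster Cd36 was thus paired with low Stab1, at 84.3 and 75.5. Between microglia-like and Mamdc2-led nuclei Msr1 differed less than Cd36, at 82.6 and 121 against 373 and 404.

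Colec12 in the myeloid class followed yet another order. It was highest in a Hectd2os-led subcluster, at 861 (793 to 934) and 874 (823 to 926) CPM, followed by the subcluster with fibroblast genes and microglia-like nuclei, at 439 and 452 and 334 and 449. BAM-like nuclei carried 299 and 301, and dividing-like nuclei 57.9 and 187. The subcluster with fibroblast genes (270 and 329 nuclei) carried 3268 CPM of the summed 7 fibroblast markers, against 160 to 580 in the other 9 subclusters. Whether fibroblast RNA contributed to the Colec12 of that subcluster was not tested.

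Clec4a2 was spread over BAM-like, S100a4-led and Arhgap15-led nuclei, at 97.0 and 59.2, 70.7 and 28.6 and 53.0 and 19.1 CPM. Its level in microglia-like nuclei was 8.74 and 3.94. Lyve1 was found in BAM-like nuclei as 1 and 4 UMIs, and 7 of the 10 subclusters held none in either library.

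**Figure D2:**
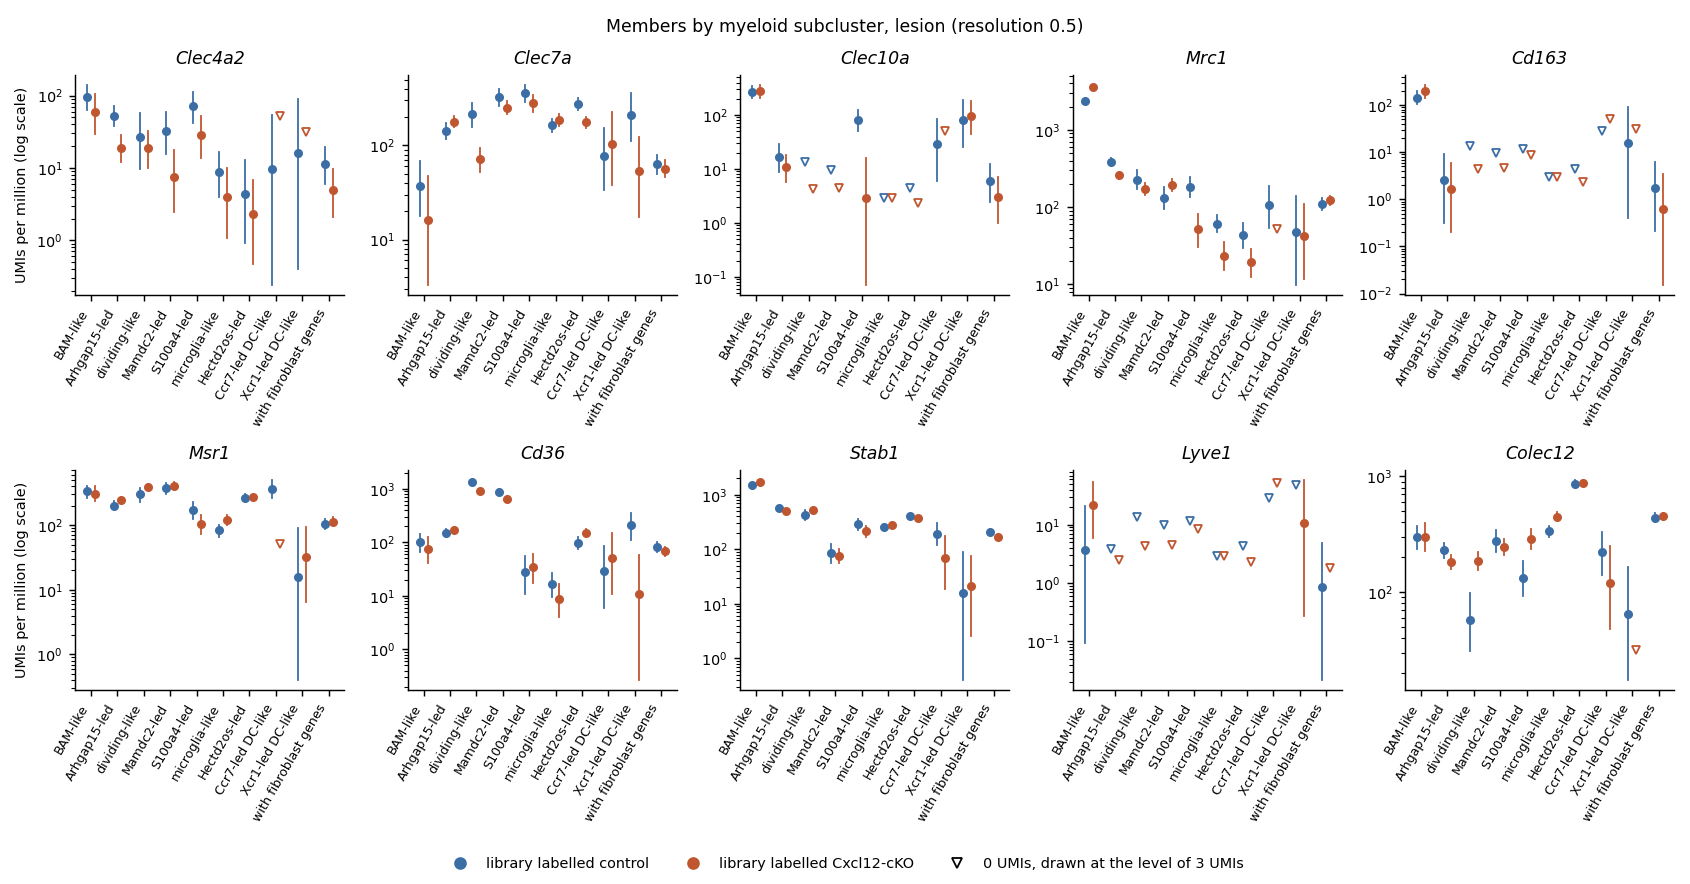
CPM (log scale) of each member in the 10 lesional myeloid subclusters at resolution 0.5, 1 point per library with 95% counting intervals; open triangles stand for 0 UMIs and are drawn at the level of 3 UMIs. Mrc1, Stab1, Clec10a and Cd163 peak in the BAM-like nuclei, where Clec7a is lowest at 37.3 and 16.1, and Cd36 peaks in dividing-like nuclei at 1327 and 914.

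The same nuclei often carried several members. At least 3 members were found in 77.2% and 72.7% of BAM-like nuclei and in 8.09% and 11.3% of microglia-like nuclei, whose median depths were similar (2024 and 1999 UMIs against 1835 and 1847). Among all 4147 lesional myeloid-like nuclei, 523 had both Mrc1 and Stab1, which was 65.1% of the nuclei with Mrc1 and 28.4% of those with Stab1. Msr1 and Cd36 were found together in 372 nuclei, 30.9% and 55.0% of the nuclei with each. Clec4a2 was found in 170 and Clec10a in 114 nuclei, and 17 had both, 10.0% and 14.9% of those with each. Mrc1 and Stab1 were found in 803 and 1843 nuclei and Msr1 and Cd36 in 1205 and 676, so the counts of shared nuclei cannot be ranked across these pairs.

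The genotype comparison asked whether members differed between lesional myeloid-like nuclei of the cKO- and control-labelled libraries. Clec4a2 had 128 UMIs in the control-labelled library and 77 in the cKO-labelled library, a log2 ratio of -1.29 (-1.72 to -0.88) in CPM. Clec10a had 121 and 80 UMIs, a log2 ratio of -1.16 (-1.59 to -0.74), and Cd163 had 44 and 40, a log2 ratio of -0.70 (-1.36 to -0.05). These were the 3 members past 1.5-fold lower among the 9 with at least 20 UMIs, and 0 members were past 1.5-fold higher. Over all 14903 genes with as many UMIs, 5.51% were past 1.5-fold lower and 5.37% higher. The median log2 ratio was -0.19 over the 9 members and -0.02 over all genes.

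The other members lay within 1.5-fold. Mrc1 was lower in the cKO-labelled library, at -0.37 (-0.48 to -0.26), as were Clec7a, at -0.19 (-0.32 to -0.05), and Stab1, at -0.15 (-0.24 to -0.06). Colec12 was higher at 0.13 (0.04 to 0.21), Msr1 at 0.25 (0.14 to 0.37) and Cd36 at 0.26 (0.14 to 0.38). In a mean over the states at resolution 0.5, weighted alike in both libraries, the directions of Mrc1 (0.09) and Cd36 (-0.24) turned. The sum of the 10 members stood at 1629 and 1586 CPM, a log2 ratio of -0.04 (-0.08 to 0.00). Lyve1 had 2 and 5 UMIs, too few for a ratio.

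Nuclei were assigned to the female or the male mouse by UMIs of sex-specific genes, which gave the comparison once for each sex. Clec4a2 was lower in both, at -1.34 (-1.92 to -0.79) between the females and -1.0 (-1.96 to -0.11) between the males, and so was Clec10a, at -1.35 (-1.97 to -0.76) and -0.90 (-1.80 to -0.07). Mrc1 was likewise lower in both, at -0.41 (-0.57 to -0.26) and -0.30 (-0.51 to -0.08). Cd163 was not, with -1.56 (-3.05 to -0.24) from 14 and 8 UMIs in the females and 0.63 (-0.88 to 2.40) from 6 and 11 in the males. Cd36 was higher between the females, at 0.73 (0.52 to 0.96), and stood at -0.01 (-0.20 to 0.17) between the males.

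**Figure D3:**
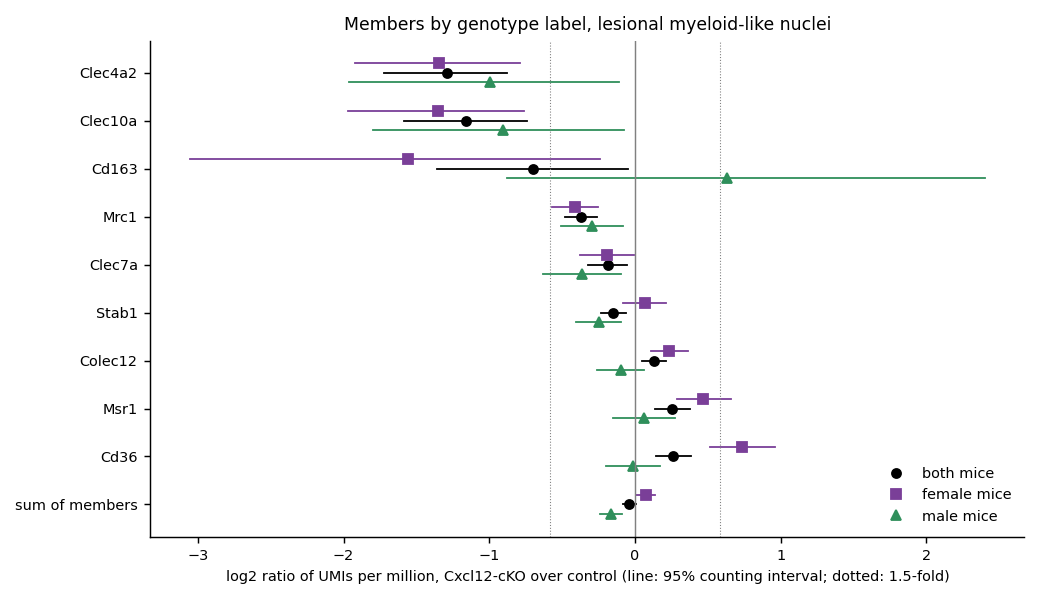
Log2 ratio of CPM in the cKO-labelled library over that labelled control, in lesional myeloid-like nuclei, for both mice together and for each sex; lines are 95% counting intervals and dotted lines mark 1.5-fold. Clec4a2 and Clec10a lie below 0 for both sexes, while the Cd163 points lie on opposite sides of 0.

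Marker sums, including those of myeloid cells, also differed by genotype label in the same nuclei. The 8 myeloid markers summed to 3699 CPM in the control-labelled library and 3060 in the cKO-labelled library. They were lower in the cKO-labelled library in both the females (4221 and 3259) and the males (3197 and 2732). The 7 fibroblast markers summed to 1168 CPM in the control-labelled library and 821 in the cKO-labelled library, with 0 markers absent in either. The 7 border-associated macrophage markers summed to 1135 and 1067, and the 9 homeostatic microglia markers to 1622 and 1333. The 6 neutrophil markers summed to 647 and 286, of which 1735 and 258 UMIs were S100a8 and S100a9 in 10 and 25 nuclei. Clec4a2 stayed past 1.5-fold lower, between -1.44 and -0.94, in each of 15 alternatives, which include runs without the S100a8 or S100a9 nuclei and without the subcluster with fibroblast genes. Beyond these runs, the part of the marker differences in the member ratios was not tested.

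Within states, Clec4a2 was lower in the cKO-labelled library in all 4 subclusters at resolution 0.5 with at least 20 of its UMIs over both libraries. Its interval lay below 0 in 2 of the 4, at log2 ratios of -1.46 (-2.28 to -0.70) in Arhgap15-led and -1.28 (-2.58 to -0.11) in S100a4-led nuclei. In BAM-like nuclei it stood at -0.68 (-1.88 to 0.35), where the interval includes 0. Clec10a differed by state instead. In BAM-like nuclei its ratio was 0.06 (-0.48 to 0.59), from 72 and 52 UMIs, whereas S100a4-led nuclei held 21 UMIs in the control-labelled library and 1 in the cKO-labelled library, at 82.4 (51.0 to 126) and 2.86 (0.0723 to 15.9) CPM. Cd163 in BAM-like nuclei stood at 0.45 (-0.24 to 1.14), from 39 and 37 UMIs.

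Mrc1 had opposite directions in different states. In BAM-like nuclei it was higher in the cKO-labelled library, with 642 and 666 UMIs and a log2 ratio of 0.58 (0.42 to 0.74). This held for the females, at 2083 and 4310 CPM, and for the males, at 2591 and 3435. It was also higher in Mamdc2-led nuclei, at 0.55 (0.05 to 1.11), and stood at 0.15 (-0.18 to 0.48) in the subcluster with fibroblast genes. In Arhgap15-led nuclei Mrc1 was lower, at -0.56 (-0.79 to -0.32), and likewise in S100a4-led nuclei, at -1.82 (-2.71 to -1.03), in microglia-like nuclei, at -1.35 (-2.12 to -0.67), and in Hectd2os-led nuclei, at -1.18 (-2.01 to -0.37). In dividing-like nuclei it stood at -0.42 (-0.90 to 0.09). BAM-like nuclei made up 6.8% (5.7 to 8.1) of lesional myeloid-like nuclei in the control-labelled library and 3.8% (3.0 to 4.6) in the cKO-labelled library. They held 642 of 1311 and 666 of 1498 myeloid-like Mrc1 UMIs. The difference between states was not tested.

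**Figure D4:**
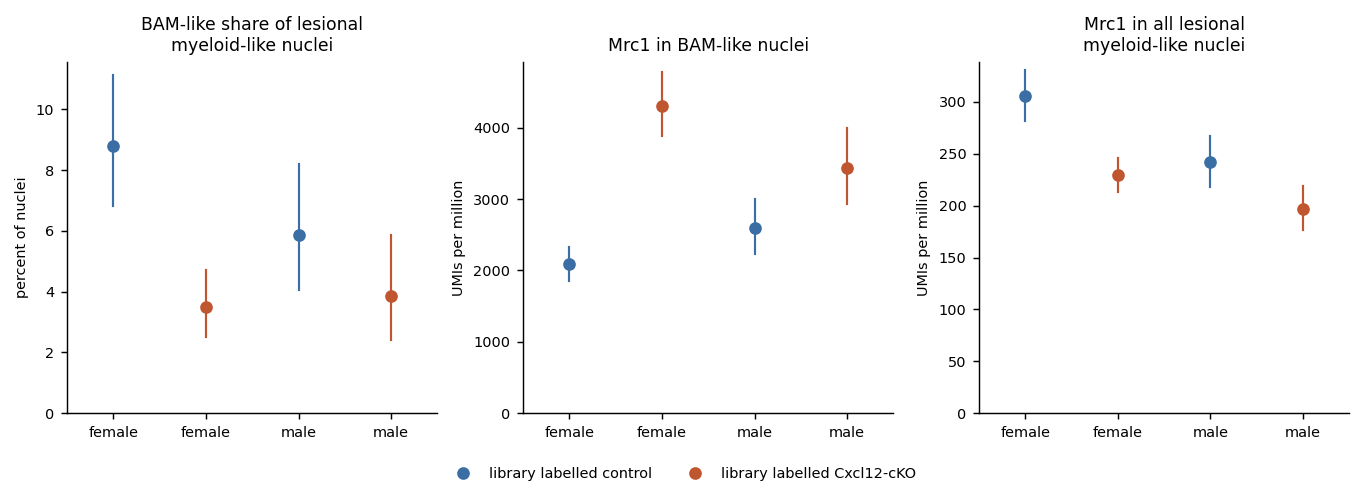
Share of lesional myeloid-like nuclei that were BAM-like (percent), Mrc1 in BAM-like nuclei and Mrc1 in all lesional myeloid-like nuclei (CPM), 1 point per mouse with 95% counting intervals. In the cKO-labelled library both mice had a lower BAM-like share, more Mrc1 within these nuclei and less Mrc1 over the whole class. The BAM-like shares of the males, 5.87% (4.05 to 8.19) and 3.87% (2.41 to 5.86), had overlapping intervals.

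Other members also differed by state. In homeostatic microglia-like nuclei at resolution 0.5, Colec12 was higher in the cKO-labelled library, at 0.43 (0.22 to 0.63), and so was Msr1, at 0.55 (0.14 to 0.97). In dividing-like nuclei Clec7a was lower, at -1.59 (-2.19 to -0.99), Cd36 was lower, at -0.54 (-0.74 to -0.33), and Colec12 was higher, at 1.64 (0.87 to 2.64), from 13 and 129 UMIs. Over the 7 subclusters with at least 20 of its UMIs, Cd36 was lower in 5 and higher in 2, with intervals below 0 in 2 and above 0 in 1, the Hectd2os-led nuclei at 0.63 (0.23 to 1.06). Dividing-like nuclei, where Cd36 was highest, made up 3.49% (2.69 to 4.44) of lesional myeloid-like nuclei in the control-labelled library and 7.01% (6.01 to 8.12) in the cKO-labelled library. Split by mouse, only 4 were assigned to the control-labelled female, a share of 0.57% (0.15 to 1.45). The control-labelled male had 37, or 6.79% (4.82 to 9.24). This was close to the cKO-labelled female, with 78 or 6.79% (5.40 to 8.40). The cKO-labelled male had 49, or 9.04% (6.76 to 11.8). The part of this imbalance between mice in the dividing-like ratios was not tested. Clec7a was also lower in the Hectd2os-led subcluster, at -0.65 (-0.94 to -0.37). Stab1 lay within 1.5-fold in 8 of the 9 subclusters in which it had at least 20 UMIs. The exception was the Ccr7-led dendritic-like subcluster (40 and 28 nuclei), with 20 and 4 Stab1 UMIs, where Msr1 had 38 and 0 UMIs.

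The female and the male of a library differ without the genotype label. With 1 mouse of each sex per library, sex and animal cannot be told apart and the spread between animals is not measured. In the control-labelled library, Cd36 in lesional myeloid-like nuclei stood at 118 CPM in the female and 284 in the male, a log2 ratio of -1.27 (-1.50 to -1.03). In the cKO-labelled library it stood at 197 and 281. Stab1 was also lower in the female in both libraries, at -0.61 and -0.29. Clec7a was higher in the female in both, at 0.40 and 0.58, and so was Mrc1, at 0.34 and 0.22. Clec4a2 was higher in the female, at 0.87 (0.24 to 1.55) in the control-labelled library and 0.52 (-0.29 to 1.44) in the cKO-labelled library. Cd163 stood at 0.86 (-0.55 to 2.59) in the control-labelled library and -1.33 (-2.87 to 0.10) in the cKO-labelled library, and Msr1 at -0.28 and 0.13. The pooled genotype ratios of Cd163, Msr1, Cd36, Stab1 and Clec7a were smaller in size than the ratios between the mice of the control-labelled library, and that of Mrc1 (-0.37) was of like size. Those of Clec4a2 (-1.29), Clec10a (-1.16) and Colec12 (0.13) were larger than the ratios between these mice, at 0.87, 0.57 (-0.05 to 1.24) and 0.003. Against the mice of the cKO-labelled library, Colec12 turned, since its ratio between them, 0.34 (0.21 to 0.47), was larger than its genotype ratio. Msr1 turned the other way, with 0.13 between these mice, and Clec10a stood at 0.12 (-0.66 to 0.99).

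In lesional fibroblast-like nuclei (4163 and 4071), 7 members had at least 20 UMIs, of which 0 were past 1.5-fold lower and 1 past 1.5-fold higher, against 4.17% and 5.27% of 16555 genes. The member past 1.5-fold was Stab1, with 84 and 133 UMIs and a log2 ratio of 0.63 (0.22 to 1.04), higher in both the female and the male comparison (0.90 and 0.59). It stayed past 1.5-fold in 8 of 11 alternatives and fell to 0.34 with each nucleus classed by its own markers. Its levels there were low, at 5.89 and 9.11 CPM, beside 4.21 and 2.87 in excitatory neuron-like nuclei. Whether free RNA holds part of the fibroblast-like levels was not tested. Colec12, with 7336 and 8309 UMIs, had a log2 ratio of 0.15 (0.10 to 0.19), 0.43 (0.35 to 0.50) between the females and -0.04 (-0.11 to 0.03) between the males. By cluster the Colec12 ratio was 0.30 in the Ranbp3l-containing, 0.11 in the Eln-led and -0.18 in the Lama1-containing cluster. Lyve1, with 29 UMIs in each library, stood at -0.03 (-0.83 to 0.76). The median over the 7 members was 0.21 and over all genes 0.003.

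In parenchyma the myeloid-like nuclei were few, 32 in the control-labelled library and 46 in the cKO-labelled library. Mrc1 stood there at 444 (314 to 609) and 334 (229.9 to 469) CPM and Stab1 at 362 (246 to 514) and 293 (197 to 422). Cd163 stood at 140.1 (72.4 to 245) and 91.1 (41.7 to 173), from 12 and 9 UMIs, above its lesional myeloid-like level in both libraries with no overlap of intervals. Clec7a had 0 and 12 UMIs, Msr1 4 and 1, and Cd36 3 and 2. In the control-labelled library the 0 UMIs of Clec7a allow up to 43.1 CPM. Colec12 in parenchymal fibroblast-like nuclei (51 and 50) stood at 379.8 (303 to 469.7) and 403 (323 to 498), below its lesional level in the same library with no overlap of intervals.

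Related genes were counted from lists of the same families. Of 19 further lectins, 15 were measured with at least 20 UMIs in lesional myeloid-like nuclei, 6 of them past 1.5-fold lower and 0 higher in the cKO-labelled library, against 5.51% lower and 5.37% higher over all genes, with a median of -0.27 against -0.02 over all genes. The 6 were Clec4a1 (-0.82), Clec4a3 (-0.69), Clec4b1 (-0.97), Clec4e (-1.72), Clec4n (-0.92) and Mgl2 (-1.36), 5 of which were named after their values were seen. Clec4a1, Clec4a3, Clec4b1, Clec4n and Clec4e lie in 1 cluster with Clec4a2 on chromosome 6, and Mgl2 is the neighbour of Clec10a on chromosome 11. Clec4d of the same chromosome 6 cluster stood at -0.33 (-0.64 to -0.01), within 1.5-fold.

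The further scavenger receptors showed no such count, with 13 of 14 measured and 0 past 1.5-fold in either direction, at a median of -0.24. Cd5l, a secreted macrophage scavenger protein, stood at 75.6 and 104 CPM, a log2 ratio of 0.46 (0.28 to 0.64). Lrp1, an endocytic receptor, stood at 686 and 810, and Cd68, a lysosomal glycoprotein, at 60.4 and 49.6. The 7 signalling partners of the lectins were all measured and 0 were past 1.5-fold, with Syk at 321 and 331. Of the 5 hyaluronan genes 3 were measured, and 1 was past 1.5-fold lower, against the same 5.51% over all genes. It was Hyal2, named after its value was seen, from 12 and 11 UMIs and with a log2 ratio of -0.68 (-2.01 to 0.62), whose interval includes 0. Cd44, the main hyaluronan receptor of leukocytes, stood at 212 and 252.

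The genes whose levels over myeloid states were most like each member are given as a description over 8 points, 4 states in 2 libraries, which share library and depth. For Cd36 they were Pparg, a regulator of lipid uptake (Pearson r = 0.98), Fabp4, a fatty acid carrier (0.97), and Fgd4 (0.97), among 10460 genes. For Clec7a they were Ncf4, a subunit of the phagocyte oxidase (0.99), Gch1 (0.99) and Tifa (0.98). For Clec10a they were Clec4a1 (0.98), Ifi203 (0.98) and Acp5 (0.98), and for Clec4a2 Grk6, Zfp36l2 and Selenop (each 0.95). Mrc1 was most like Ap2a2, an adaptor subunit of endocytosis (0.97), Pltp (0.97) and Stab2 (0.96), Msr1 most like Slc6a6, Mpp1 and Galnt2 (each 0.98). Stab1 was most like Adgre1, which encodes the macrophage marker F4/80 (0.99), Vps50 (0.98) and BC005537 (0.98), and Colec12 most like Crkl (0.98), Acaca (0.98) and Rgmb (0.97).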

How the data were processed

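Single-nucleus RNA-seq (10x Chromium 3′) was analysed from 1 gene expression library per genotype. Per the submitters' processing notes, the authors ran Cell Ranger 9.0.0 on GRCm39, and deposited 4 matrices, 1 per region and library, that hold whole-number UMI counts with no normalization. The sources used here do not give the counting of intronic reads. Tag libraries were used only through the deposited region matrices, and 0 columns of per-sample values were left unused.

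Percentile filters on all barcodes together removed the outer 2.5% at each end of UMIs and genes and the top 2.5% of mitochondrial share (757 to 36244 UMIs and 584 to 6419 genes kept, at most 8.75% mitochondrial UMIs), which left 21743 of 23489. After scaling each nucleus to 10000 and taking logs, 3000 variable genes (2000 for myeloid-like nuclei), 30 principal components and 20 neighbours were used for Leiden clustering at resolutions 0.25 and 0.5 (scanpy 1.11.5, leidenalg 0.10.2). The 10 members and the related lectin and scavenger lists were left out of clustering, and no member was a marker. A cluster is written as class-like with at least 3 markers found in at least 10% of its nuclei and a mean log2 fold of at least 0.5; these naming thresholds were set after clusters had been seen. Scrublet called 0 to 17 barcodes per matrix, which was taken as not having worked, so no barcode was removed by it; removing the top 10% of scores was an alternative.

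UMIs were summed per library and class or state and divided by the summed UMIs of those nuclei to give CPM (scipy 1.17.1 and pandas 2.3.3 in Python 3.11.15). Levels carry exact Poisson intervals, shares of nuclei exact binomial (Clopper-Pearson) intervals, and log2 ratios an exact conditional interval with 0.5 UMIs added; all are 95% and cover counting error only. Lesional medians of about 3000 UMIs set this precision. With 1 library per genotype no p-value is given, and a gene is called higher or lower past 1.5-fold with at least 20 UMIs over both libraries. The ratio computation was tested on simulated lesional myeloid-like counts with counting error only, so this says nothing of the spread between mice or nuclei. Of 14479 genes simulated without change, 2.83% were past 1.5-fold higher and 2.54% lower. Scaling by TMM (edgeR 4.0.16) and by DESeq2 1.42.0 size factors, other filters, other clusterings, thinning to 1000 UMIs, and each sex alone were alternatives.

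All members are named. List genes with at least 200 UMIs in lesional myeloid-like nuclei could be named, and for members with at least 100 UMIs the 3 genes most correlated over states with at least 30 nuclei per library. The members, lists and alternatives were chosen with earlier results of these data known. Promoters are from RefSeq on GRCm38.p6, another build than that of the files, so coordinates are given only for them.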

Additional observations from a re-analysis of the deposited data

Results flagged for a closer look

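With 1 mouse of each sex per library, 9 comparisons had ratios of opposite sign in the females and the males, for the cKO-labelled over the control-labelled library. None of these differences between the sexes was tested, and sex cannot be told apart from the animal. In lesional myeloid-like nuclei, log2 ratios were -1.56 in females and 0.63 in males for Cd163, 0.73 and -0.013 for Cd36, 0.067 and -0.25 for Stab1, 0.24 and -0.10 for Colec12, and 0.073 and -0.16 for the sum of the 10 members. In lesional fibroblast-like nuclei they were 0.37 and -0.87 for Msr1, -0.36 and 0.013 for Lyve1, 0.43 and -0.041 for Colec12, and 0.43 and -0.038 for the sum of the members. Cd163 rested on 14 and 8 UMIs in females and 6 and 11 in males. The fibroblast markers in myeloid-like nuclei moved between the sexes too, with 1251 and 580 CPM in the females of the control- and cKO-labelled libraries and 868 and 980 in the males.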

How the results depend on the processing

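No paired analysis was possible because each genotype was 1 library. The log2 ratio of the summed members in lesional myeloid-like nuclei, -0.04 as reported, became 0.013 with each nucleus classed by its own markers, 0.073 in females and -0.16 in males. That in fibroblast-like nuclei, 0.15 as reported, became 0.086 with every nucleus weighted alike, 0.43 in females and -0.038 in males. The 3 members past 1.5-fold in myeloid-like nuclei became 1, Clec4a2, in a mean over the states at resolution 0.5 weighted alike in both libraries, and stayed within 1.5 times of 3 in the other 16 alternatives. Clec4a2 stayed past 1.5-fold lower in 15 of 15 alternatives (-1.44 to -0.94) and Clec10a in 14 of 15 (-1.46 to -0.30). Cd163 changed sign in the males (0.63) and in the mean over states at resolution 0.5 (0.32). Colec12 in microglia-like over other myeloid-like nuclei changed sign at resolution 0.5 (-0.053) and with nuclei classed by their own state markers (-0.049), and Cd36 by genotype in microglia-like nuclei changed sign at resolution 0.5 (-0.86) and in females (-0.40). The cause was not tested. Of 135 member ratios in myeloid-like nuclei under alternatives, 116 stayed within the counting interval and 19 moved beyond it. Of these 19, 7 changed sign, which were the 2 of Cd163, Mrc1 (0.093) and Cd36 (-0.24) in the mean over states at resolution 0.5, Cd36 (-0.013) and Colec12 (-0.10) in males and Stab1 (0.067) in females. In fibroblast-like nuclei 69 of 77 stayed within the interval and 7 changed sign, and Stab1 was no longer past 1.5-fold with nuclei classed by their own markers (0.34), with every nucleus weighted alike (0.45) and without the top 10% of Scrublet scores (0.57). The mean over states at resolution 0.5 and the removal of nuclei with S100a8 or S100a9 were chosen after seeing the data. Depth limits Lyve1, Cd163 and the parenchymal myeloid-like nuclei most, since each rests on few UMIs.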
